A study of Homo sapiens with 6 samples.

Results

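The BAP18 gene and 9 genes for subunits of ISWI and NURF chromatin remodeling complexes were followed after BAP18 knockdown. The members were the rows of the deposited gene table carrying the symbols C17orf49 (BAP18), BPTF, SMARCA1, SMARCA5, RBBP4, RBBP7, BAZ1A, BAZ1B, CECR2 and HMGXB4, and all 10 were present among 35474 rows. RNA was taken 48 h after transfection from A549 cells, a human lung adenocarcinoma cell line, given a BAP18 siRNA (siBAP18, 3 cultures) or a non-specific siRNA (siCtrl, 3 cultures). No other treatment is described for either group, and the sources used here do not say which BAP18 siRNA these cultures received. Poly(A) RNA was sequenced, and the total counts were 53657450, 46035635 and 47099816 for siCtrl (replicates 1 to 3) and 53996860, 56548620 and 42094524 for siBAP18 (replicates 1 to 3). The comparison asks how the transcripts of BAP18 and of the remodeling machinery it is associated with stood after its knockdown.

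ISWI complexes slide and space nucleosomes with the energy of ATP. Each is built around an ATPase, SMARCA1 (SNF2L) or SMARCA5 (SNF2H), which pairs with a large partner: BPTF in NURF, BAZ1A in ACF and CHRAC, BAZ1B in WICH and CECR2 in CERF. RBBP4 and RBBP7 are histone-binding WD40 proteins of NURF that also serve in several other chromatin complexes, and BAP18 is a SANT-domain protein that was found with BPTF and binds histone H3 trimethylated at lysine 4.

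Of the 10 genes, 7 were lower and 1 was higher in siBAP18 cells at an adjusted p under 0.05 (edgeR's quasi-likelihood test, adjusted over all 20776 genes tested). By the same rule 25.1% of all genes tested were lower and 24.5% were higher, or 49.6% in all, so that a call alone was common in this comparison. Among the 14222 genes that averaged a log2 CPM of 1 or more, where 9 of the 10 lie, 31.8% were lower and 29.1% were higher. The 7 lower genes were BAP18 itself, BPTF, both ATPases, RBBP4, RBBP7 and BAZ1B, and the higher gene was CECR2. BAZ1A and HMGXB4 were not called. Only C17orf49 passed 2-fold, a bound passed by 8.46% of all genes tested, 3.74% downward and 4.72% upward. The ranges of the groups were apart in 8 of the 10 genes, 7 lower and 1 higher, where 29.0% and 27.6% of all genes tested were apart in these directions and 56.6% in either. The median log2 fold change was −0.39 over the 10 genes, −0.38 without C17orf49 and 0.0010 over all genes tested. All 10 passed the filter on low counts. Because the RNA is from whole cultures, fewer cells with a transcript and less of it per cell cannot be told apart.

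Expression of BAP18 was measured first, since its siRNA is the treatment. C17orf49 maps to chromosome 17 (7014495 to 7017525, + strand), by the exon positions in the table (GRCh38). It had 743, 751 and 705 counts with siCtrl and 120, 137 and 108 with siBAP18. The 3 siBAP18 libraries were close to each other and all far below the siCtrl libraries. Levels in CPM (counts scaled to a common library total by TMM) were 15.1 ± 1.09 (SD, n = 3) with siCtrl and 2.41 ± 0.235 (SD, n = 3) with siBAP18, or 16.0% of control. The log2 fold change was −2.65 (SE 0.111, adjusted p = 7.31e-16).

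The C17orf49 row shares most of its exon bases with other rows, and only 23.5% are its own. RNASEK-C17orf49, a readthrough row joining C17orf49 to the upstream RNASEK, shares 1163 exon bases with it, and MIR497HG, a microRNA host gene on the − strand, shares 1466. Reads in a shared exon may have been entered in more than 1 row, also across strands. Such reads were not all left out. Of 492 rows wholly inside exons of same-strand rows, the highest held 1009324 counts over all libraries. Whether these reads were entered once or several times was not tested. Of the rows lying wholly inside exons of an opposite-strand row, 314 had 1 such partner and at least 60 counts, and their RPKM ratio to the partner had a median of 1.01 with a wide range, from 0.00764 to 22.9. The cut at 60 was on the row's own counts, which favours higher ratios. Among these rows, ZNRD1-AS1_2 had 342 counts over all libraries against 301 in its partner ATE1-AS1. Partners were sought only on the first chromosome listed for a row, while its counts cover every place listed. Whether this row is listed in several places was not checked, so the pair decides nothing about shared reads. How many reads the rows of the C17orf49 locus share was not measured, and their values may not be separate measurements.

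**Figure D1:**
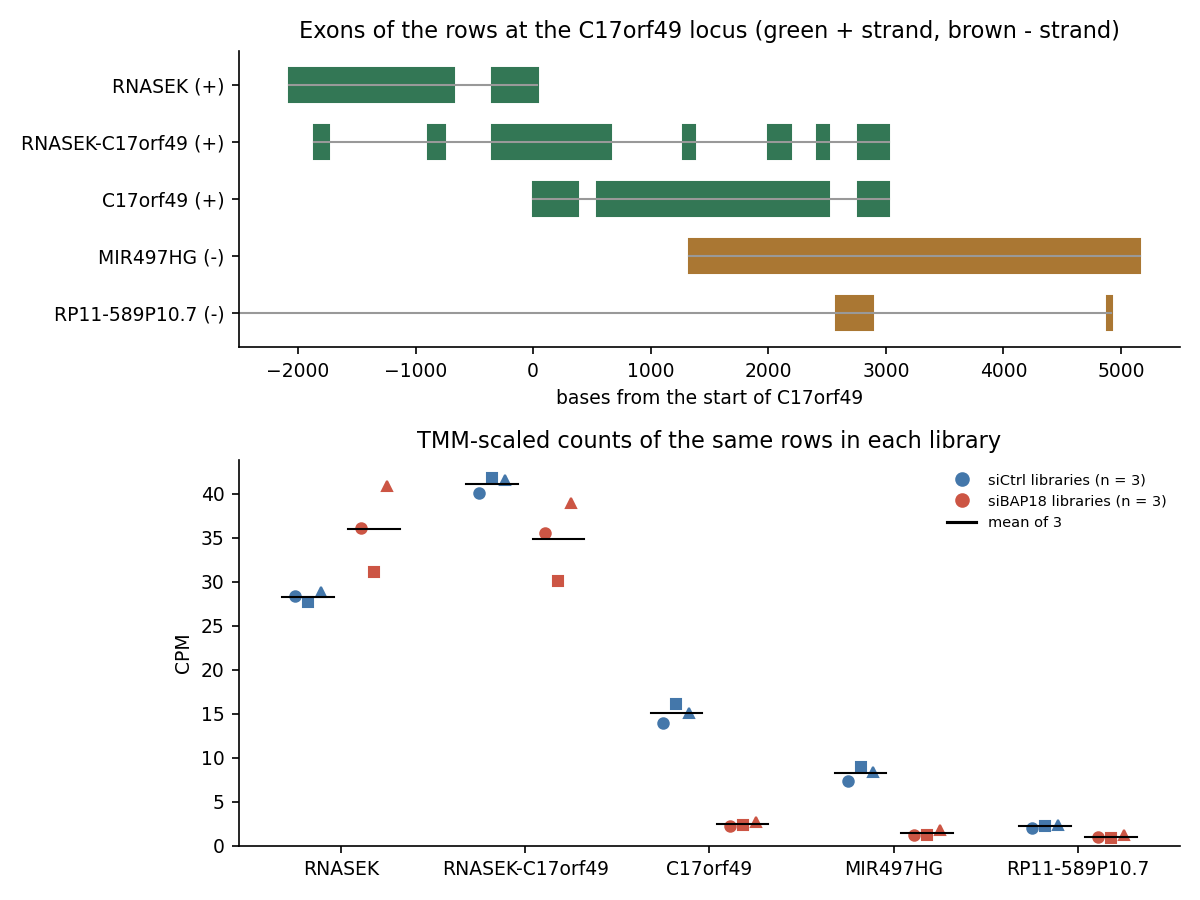
Upper panel, exons of 5 rows at the C17orf49 locus by distance in bases from the start of C17orf49, colored by strand (the row of RP11-589P10.7 continues to the left). Lower panel, TMM-scaled CPM of each row in the 6 libraries, with replicates 1, 2 and 3 as circles, squares and triangles and bars at the means of 3. C17orf49, MIR497HG and RP11-589P10.7 sit lower in all 3 siBAP18 libraries, while RNASEK sits higher.

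Within this locus the rows moved apart. RNASEK, which encodes a small protein associated with the V-ATPase, had 28.4, 27.7 and 28.8 CPM with siCtrl and 36.1, 31.1 and 40.8 CPM with siBAP18. All 3 siBAP18 libraries were above the siCtrl libraries, and the log2 fold change of RNASEK was 0.35 (SE 0.0826, adjusted p = 0.0011). The readthrough row had 40.1, 41.8 and 41.5 CPM in siCtrl cells and 35.5, 30.0 and 38.9 CPM in siBAP18 cells. Its log2 fold change of −0.24 (adjusted p = 0.0138) rests on a row of which 8.27% of the bases are its own, and the call was lost on leaving out siCtrl replicate 2 (−0.24, adjusted p = 0.0551) or siBAP18 replicate 2 (−0.15, adjusted p = 0.0809). Its counts were 0.946 to 0.953 of the summed counts of RNASEK and C17orf49 in siCtrl libraries and 0.894 to 0.926 of that sum in siBAP18 libraries. C17orf49 made up 33.0% to 36.8% of the same sum in siCtrl libraries and 5.75% to 7.02% in siBAP18 libraries.

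On the opposite strand, MIR497HG had 389, 417 and 393 counts with siCtrl and 69, 69 and 72 with siBAP18, with a log2 fold change of −2.57. Its counts stood at 0.524 to 0.557 of those of C17orf49 in siCtrl libraries and at 0.504 to 0.667 in siBAP18 libraries, ranges that overlap. The antisense row RP11-589P10.7, with no exon base of its own, changed by −1.14 on the log2 scale (adjusted p = 3.51e-05). Further away within 100 kb, SLC16A13, a monocarboxylate transporter family gene, was lower (log2 fold change −0.53, adjusted p = 0.0166) and the pseudogene row ALOX12P2 was higher (0.34, adjusted p = 0.0403). ALOX12, ALOX12-AS1 and SLC16A11 were not called, and the other 5 rows in this window were too low to be tested. These calls rest on few counts: that of SLC16A13 was lost on leaving out siCtrl replicate 1 (adjusted p = 0.0684) or siBAP18 replicate 2 (adjusted p = 0.0758), that of ALOX12P2 on leaving out any siCtrl library (adjusted p from 0.0595 to 0.112) or siBAP18 replicate 2 (adjusted p = 0.222), and ALOX12 was called without siBAP18 replicate 3 (−0.57, adjusted p = 0.0436).

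BPTF is the largest subunit of NURF and reads histone H3 lysine 4 trimethylation through its PHD finger and acetylated histone H4 through its bromodomain. BPTF maps to chromosome 17 (67825524 to 67984378, + strand). It had 137.4, 140.3 and 138.0 CPM with siCtrl and 97.4, 108.8 and 92.3 CPM with siBAP18. The siCtrl values were tightly grouped and every siBAP18 value was lower. The log2 fold change of BPTF was −0.48 (SE 0.0694, adjusted p = 2.80e-06), so that 71.8% of the control level was left.

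The ATPase of NURF, SMARCA1, showed the largest fall after C17orf49 among the 10 genes. SMARCA1 maps to chromosome X (129446501 to 129523500, − strand). Its level was 137.1, 125.7 and 139.9 CPM with siCtrl and 76.4, 84.2 and 76.2 CPM with siBAP18. The highest siBAP18 value lay well below the lowest siCtrl value. SMARCA1 changed by −0.77 on the log2 scale (SE 0.0692, adjusted p = 1.22e-09), which left 58.8% of the control level.

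SMARCA5 is the ATPase of ACF, CHRAC, WICH and several other complexes, and it maps to chromosome 4 (143513463 to 143557486, + strand). It had 130.5, 131.2 and 140.8 CPM with siCtrl and 99.7, 107.4 and 93.2 CPM with siBAP18, without overlap. The log2 fold change of SMARCA5 was −0.42 (SE 0.0690, adjusted p = 1.43e-05). SMARCA5-AS1, which overlaps its start on the − strand, was not called (log2 fold change −0.26, adjusted p = 0.149), but was called without siCtrl replicate 1 (−0.40, adjusted p = 0.0353).

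The histone-binding pair fell by similar amounts. RBBP4 (chromosome 1, 32651142 to 32686211, + strand) had 72.0, 73.0 and 71.2 CPM with siCtrl and 58.1, 55.6 and 49.2 CPM with siBAP18. RBBP7 (chromosome X, 16839283 to 16870414, − strand) had 156.1, 161.2 and 155.8 CPM with siCtrl and 119.5, 129.2 and 115.2 CPM with siBAP18. Neither gene had overlapping groups. The log2 fold change was −0.41 (SE 0.0707, adjusted p = 3.02e-05) for RBBP4 and −0.38 (SE 0.0665, adjusted p = 3.65e-05) for RBBP7. Of the rows named as RBBP4 pseudogenes, RBBP4P1, RBBP4P2, RBBP4P4 and RBBP4P5 held at most 14 counts in a library and were not tested.

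HMGXB4, an HMG-box protein described with NURF, did not pass the test. It maps to chromosome 22 (35257452 to 35295807, + strand). Its level was 18.9, 21.4 and 17.4 CPM with siCtrl and 17.3, 18.5 and 16.4 CPM with siBAP18, which overlapped. The log2 fold change was −0.14 with a 95% interval from −0.32 to 0.031 (adjusted p = 0.166).

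Outside NURF, the large partners are BAZ1B, BAZ1A and CECR2. BAZ1B (WSTF), a bromodomain protein and tyrosine kinase of histone H2A.X that forms WICH with SMARCA5, maps to chromosome 7 (73440398 to 73522278, − strand). It had 418.6, 448.2 and 429.9 CPM with siCtrl and 326.3, 398.3 and 323.7 CPM with siBAP18. Replicate 2 of siBAP18 stood nearer to the siCtrl libraries than the other two did, but below all of them. BAZ1B changed by −0.31 on the log2 scale (SE 0.0757, adjusted p = 0.00148), a call lost with limma on log2(RPKM + 1) without a filter (−0.30, adjusted p = 0.0992).

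BAZ1A (ACF1), the partner of SMARCA5 in ACF and CHRAC, maps to chromosome 14 (34752731 to 34875647, − strand). It had 68.2, 70.5 and 69.5 CPM with siCtrl and 68.6, 79.1 and 71.8 CPM with siBAP18. The groups overlapped, and the log2 fold change of 0.077 had a 95% interval from −0.066 to 0.22 (adjusted p = 0.380). With an offset from a trend on gene length, BAZ1A reached 0.18 (adjusted p = 0.0236).

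CECR2, a bromodomain protein that forms CERF with SMARCA1, was scarcely detected. It maps to chromosome 22 (17359949 to 17558149, + strand) and had 51, 19 and 19 counts with siCtrl and 63, 57 and 39 with siBAP18. In CPM the siCtrl values were 0.959, 0.409 and 0.406 and the siBAP18 values were 1.16, 0.976 and 0.962, so that siCtrl replicate 1 stood just under the lowest siBAP18 library. The log2 fold change was 0.78 with a 95% interval from 0.15 to 1.41 (adjusted p = 0.0365). The call was lost without siCtrl replicate 2 (0.57, adjusted p = 0.170), without siCtrl replicate 3 (0.57, adjusted p = 0.161), without siBAP18 replicate 1 (0.69, adjusted p = 0.125) and with limma on log2(RPKM + 1) without a filter (0.056, adjusted p = 0.198). Without siCtrl replicate 1, the control library with 51 counts, the log2 fold change of CECR2 was 1.33 (adjusted p = 0.00194), past 2-fold.

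**Figure D2:**
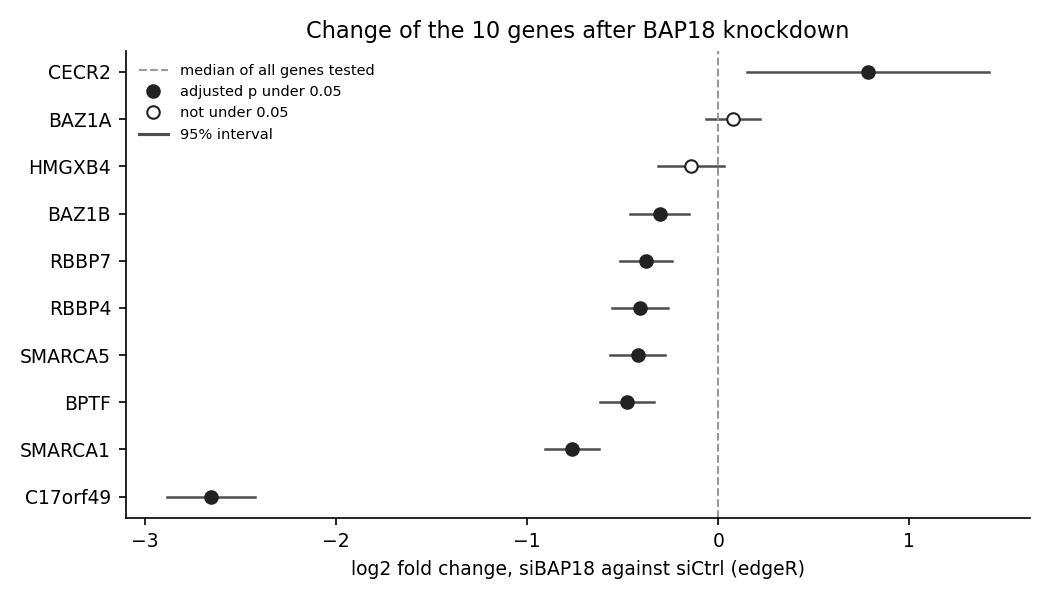
Log2 fold change of siBAP18 against siCtrl (horizontal axis) for each of the 10 genes, with 95% intervals from edgeR and 3 libraries per group. Filled points have an adjusted p under 0.05 and the dashed line is the median of all 20776 genes tested. C17orf49 lies at −2.65, the 6 other lower genes lie between −0.77 and −0.31, and the intervals of BAZ1A and HMGXB4 cross 0.

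The 10 genes differed widely in level. In RPKM, which also divides by the exon length in kilobases, the order in siCtrl cells ran from BAZ1B (61.2 ± 2.75) through SMARCA1 (30.7 ± 1.41), RBBP7 (21.3 ± 0.634), SMARCA5 (16.0 ± 0.637), BPTF (9.16 ± 0.196), BAZ1A (9.0 ± 0.234), RBBP4 (7.60 ± 0.169), C17orf49 (5.72 ± 0.470) and HMGXB4 (3.20 ± 0.363) to CECR2 (0.0547 ± 0.0291, SD, n = 3 for each). Only BPTF and BAZ1A overlapped among neighbours in this order. In siBAP18 cells BAZ1B stayed first at 49.7 ± 7.55 RPKM and CECR2 last at 0.0961 ± 0.0114 (SD, n = 3). C17orf49 stood below HMGXB4 there, at 0.915 ± 0.0656 against 2.90 ± 0.274 RPKM (SD, n = 3). BAZ1A (9.52 ± 0.943, SD, n = 3) stood above BPTF (6.61 ± 0.783, SD, n = 3) without overlap. Among siBAP18 neighbours, SMARCA1 overlapped RBBP7 and BPTF overlapped RBBP4.

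**Figure D3:**
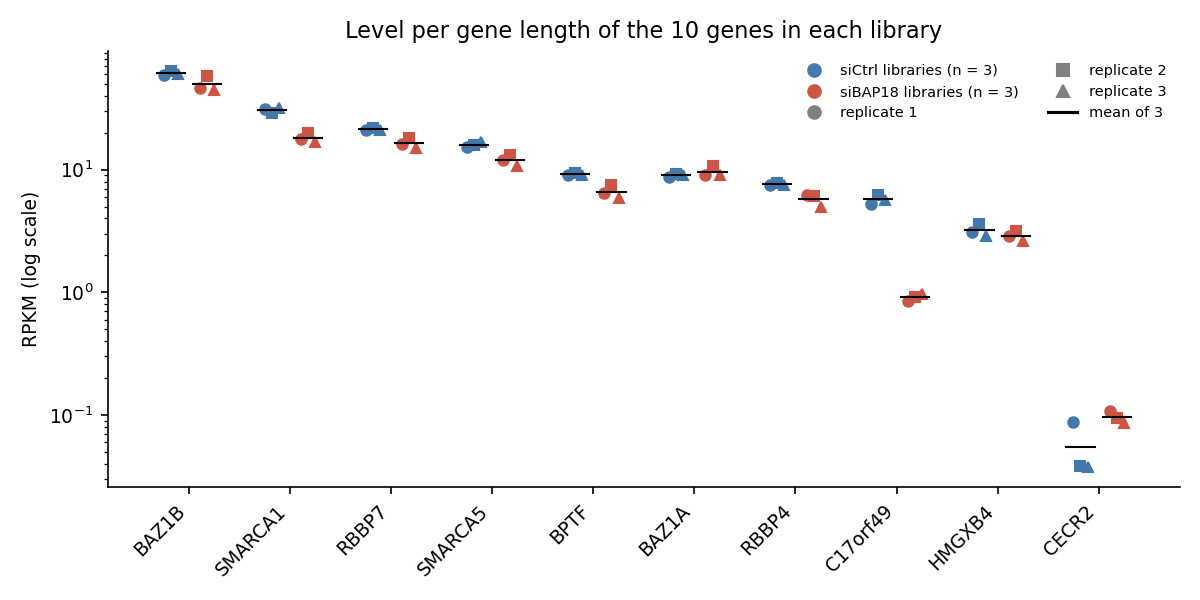
RPKM of the 10 genes in each of the 6 libraries on a log axis, in order of the siCtrl mean, with siCtrl in blue, siBAP18 in red and bars at the means of 3. BAZ1B stands highest and CECR2 lowest in both groups, and the C17orf49 values fall from between 5.27 and 6.21 to between 0.846 and 0.976.

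Some of these proteins are alternatives for the same place in a complex, so the transcript ratios within 3 such pairs were compared, on counts per kilobase. The ratio of SMARCA5 to SMARCA1 was 0.495, 0.543 and 0.524 with siCtrl and 0.679, 0.663 and 0.637 with siBAP18. All siBAP18 ratios were higher, and the mean log2 ratio differed by 0.34. The ratio of BAZ1A to BAZ1B was 0.149, 0.144 and 0.148 with siCtrl and 0.193, 0.182 and 0.203 with siBAP18, again apart, with a difference of 0.39 on the log2 scale. For either pair the two-sided exact permutation test gave p = 0.1, the smallest that 3 against 3 libraries allow, and 0.15 after adjustment over the 3 ratios. The ratio of RBBP4 to RBBP7 was 0.360, 0.354 and 0.357 with siCtrl and 0.379, 0.336 and 0.333 with siBAP18. These overlapped, with a difference of −0.033 on the log2 scale (exact permutation p = 0.7).

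**Figure D4:**
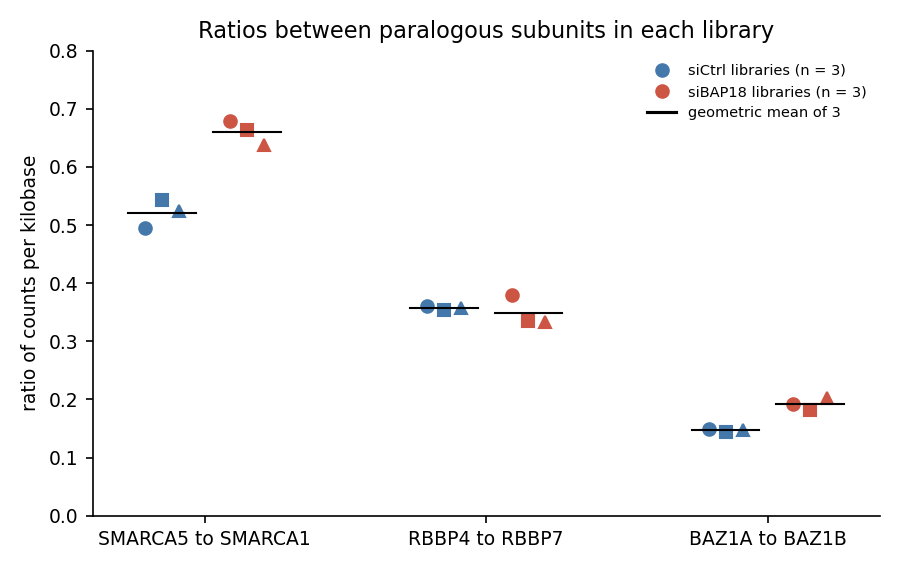
Ratio of counts per kilobase (vertical axis, from 0) for 3 pairs of paralogous subunits in each library, with siCtrl in blue, siBAP18 in red and bars at the geometric means of 3. The geometric mean for SMARCA5 to SMARCA1 is 0.520 in siCtrl and 0.660 in siBAP18, that for BAZ1A to BAZ1B is 0.147 and 0.192, and that for RBBP4 to RBBP7 is 0.357 and 0.349.

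The promoters of the 10 genes, most of which fell together, were read for 3 common motifs. The 250 bases before the RefSeq start (GRCh38.p14) were taken for the 8 of the 10 genes held there, with C17orf49 under the symbol BACC1. A RefSeq start can lie inside the row followed here. The windows of C17orf49 (7014532 to 7014781) and RBBP7 (16869864 to 16870113) lay wholly inside their rows. Those of SMARCA5 (143513452 to 143513701) and RBBP4 (32651106 to 32651355) lay mostly inside. RBBP4 and RBBP7 also had another window each. BPTF and BAZ1A were not matched. The sequences are shown for SMARCA1 and BAZ1B, the largest and the smallest fall among the lower genes other than C17orf49. Capitals mark the GC box letters GGGCGG and the CCAAT letters on either strand.
SMARCA1, chrX:129523491-129523740, − strand: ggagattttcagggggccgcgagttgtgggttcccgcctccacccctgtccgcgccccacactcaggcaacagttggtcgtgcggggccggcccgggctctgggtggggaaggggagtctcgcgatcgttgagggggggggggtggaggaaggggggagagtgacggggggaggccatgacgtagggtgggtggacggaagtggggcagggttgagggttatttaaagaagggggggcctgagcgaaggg
BAZ1B, chr7:73522294-73522543, − strand: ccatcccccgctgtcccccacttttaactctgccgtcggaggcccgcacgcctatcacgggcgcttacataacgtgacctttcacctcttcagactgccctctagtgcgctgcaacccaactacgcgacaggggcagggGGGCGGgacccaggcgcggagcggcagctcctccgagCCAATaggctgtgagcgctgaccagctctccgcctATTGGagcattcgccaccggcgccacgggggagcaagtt

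The SMARCA1 window held none of the searched motifs, and the BAZ1B window held 2 CCAAT motifs and 1 GC box, with no overlap between them. Over the 8 genes, CCAAT was found in 3 (32.0% of 35116 RefSeq promoter windows of this length) and GGGCGG in 5 (42.6%). RBBP4 and RBBP7 had 2 windows each, of which either could match, so that the 8 genes had 10 windows and the shares of all windows are not strictly comparable. The E2F letters TTTCCCGC were found in 0 of the 8 genes, against 1.39% of all windows. A match in these letters is a description of the window only.

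Other genes of the chromatin machinery were counted on lists compiled by hand, to be read against the 25.1% of all genes tested that were lower and the 24.5% that were higher (31.8% and 29.1% of the 14222 genes above). Among 11 further partners of ISWI ATPases, 5 (45.5%) were lower, 1 (9.09%) was higher and 5 were not called, with a median log2 fold change of −0.14 against 0.0010 over all genes tested. DEK, a chromatin-binding oncoprotein of the B-WICH complex, had 121.5, 112.7 and 122.3 CPM with siCtrl and 58.2, 65.3 and 66.0 CPM with siBAP18 (log2 fold change −0.91, adjusted p = 6.42e-11). BAZ2B changed by −0.59, DDX21 (an RNA helicase) by −0.45 and RSF1 (the partner of SMARCA5 in the RSF complex) by −0.31. The higher gene, named after its values were seen, was MYBBP1A, also of B-WICH (0.26, adjusted p = 0.00245). RSF1 was not called with the offset for gene length (−0.14, adjusted p = 0.0702).

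Of 32 ATPases of the SNF2 family, which include SMARCA1 and SMARCA5, 16 (50%) were lower and 6 (18.8%) were higher, with a median log2 fold change of −0.22. HELLS, which supports DNA methylation, had 40.5, 41.9 and 42.7 CPM with siCtrl and 15.3, 16.1 and 14.3 CPM with siBAP18 (log2 fold change −1.45, adjusted p = 3.74e-14). ERCC6L, a helicase of mitotic DNA bridges, changed by −1.28 and SMARCAD1 by −1.01. These were the 3 list genes past 2-fold. Of the 6 higher genes, named after their values were seen, SMARCA4 (BRG1, an ATPase of SWI/SNF complexes) had 38.6, 40.4 and 43.4 CPM with siCtrl and 81.7, 81.8 and 79.1 CPM with siBAP18 (log2 fold change 0.99, adjusted p = 1.14e-11), and INO80 and CHD5 each changed by 0.84. SMARCA1 and SMARCA5 fell less in fold than HELLS, ERCC6L and SMARCAD1, a comparison of values without a test.

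RBBP4 and RBBP7 also belong to other complexes. Of 27 genes for their further subunits, 11 (40.7%) were lower, 10 (37.0%) were higher and 6 were not called, with a median log2 fold change of −0.075. The PRC2 subunits SUZ12 and EZH2 changed by −0.72 and −0.68, and the chromatin assembly factor subunits CHAF1B and CHAF1A by −0.78 and −0.63. Among the higher genes, chosen after their values were seen, LIN37 of the DREAM complex changed by 0.53, SIN3B and SAP18 of SIN3 complexes by 0.50 and 0.49, and MTA1 of NuRD by 0.47. None of the 27 passed 2-fold.

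BAP18 has also been found with the MLL1 complex, which methylates histone H3 lysine 4. Of its 9 listed genes 3 (33.3%) were lower and 0 were higher, with a median log2 fold change of 0.0040, and the share lower was near that of all genes. PSIP1, which tethers the complex to chromatin, was the only one past 2-fold, with 381.9, 377.1 and 407.3 CPM with siCtrl and 181.8, 183.7 and 206.1 CPM with siBAP18 (log2 fold change −1.03, adjusted p = 6.81e-12). Of 30 other bromodomain genes, 11 (36.7%) were lower and 9 (30%) were higher (median log2 fold change 0.042), shares near those of the 14222 genes, and ATAD2 was the only one past 2-fold, at −1.24. Of 20 core histone chaperones, 10 (50%) were lower and 4 (20%) were higher (median −0.15), and ASF1B was the only one past 2-fold, at −1.06.

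**Figure D5:**
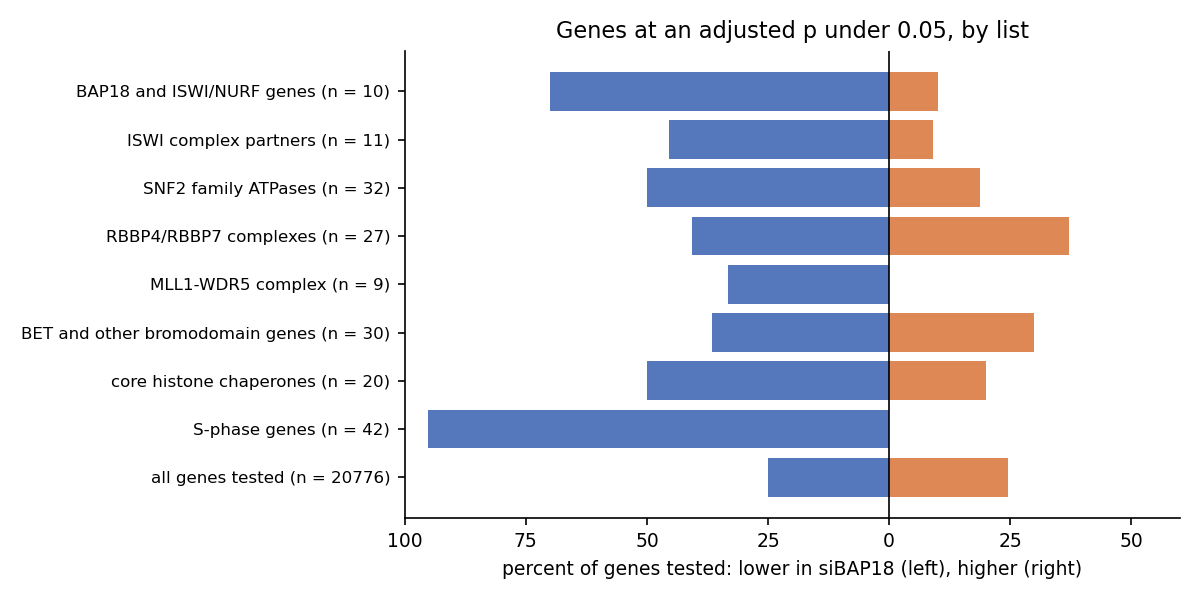
Percent of tested genes at an adjusted p under 0.05 that were lower (left of 0) or higher (right of 0) in siBAP18 cells, for each list and for all genes tested. Lower genes make up 70% of the 10 BAP18 and ISWI/NURF genes, 50% of the SNF2 family ATPases, 95.2% of the S-phase genes and 25.1% of all genes tested.

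Several other measurements moved in the same libraries as these falls. S-phase genes, which serve DNA replication, were lower in 40 of 42 genes tested and higher in 0, with a median log2 fold change of −1.05, and 24 of the 40 passed 2-fold. Their summed RPKM was 477.1, 485.8 and 479.9 with siCtrl and 305.0, 313.6 and 278.7 with siBAP18, with PCNA as the most abundant gene. CLSPN, a mediator of the replication checkpoint, changed by −2.03, EXO1, a DNA exonuclease, by −1.73 and UHRF1, which maintains DNA methylation, by −1.64. HELLS, ATAD2, CHAF1B, MCM2 and NASP of the lists above are also on this one. The part of these changes in the falls of the 10 genes was not tested.

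Gene length moved with the fold change as well. Over the same 14222 genes, the median log2 fold change was 0.072 for listed exon lengths up to 2000 bases and −0.15 for lengths over 8000 bases, where BPTF, SMARCA5 and RBBP4 lie. With an offset from a trend on length, the log2 fold change was −0.31 for BPTF (adjusted p = 0.00017), −0.31 for SMARCA5 (adjusted p = 0.000287), −0.28 for RBBP4 (adjusted p = 0.00091) and −0.75 for SMARCA1 (adjusted p = 6.39e-10). The 7 lower genes were each still called under this offset. Among the siBAP18 libraries, replicate 2 was the highest in 7 of the 10 genes and replicate 3 the lowest in 8, compared with 36.2% and 39.5% of all genes tested. The siCtrl libraries also had an order, with replicate 2 the highest in 7 of the 10 genes (35.1% of all genes tested). Replicate 1 of siCtrl was the lowest in 5 (31.8%). The median deviation of genes over 8000 bases was 0.059 in siBAP18 replicate 2 and −0.057 in siBAP18 replicate 3 (log2 scale).

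The cell type label was checked with markers. All 10 A549 epithelial markers were detected, with ALDH1A1 the most abundant, and their summed RPKM was 9309 to 9521 in siCtrl libraries and 6288 to 6531 in siBAP18 libraries. Of the 10, 9 were lower and KRT19 was not called, with a median log2 fold change of −0.39. CDH1, the epithelial cadherin, changed by −1.32 and ALDH1A1, an aldehyde dehydrogenase, by −0.85. The part of these marker changes in the values of the 10 genes was not tested. Of 8 markers of blood, endothelial and stromal cells, 5 were rows of the table, with a summed RPKM of 0.980 to 1.49 over the 6 libraries and COL1A1 as the most abundant. Of the 3 that could be tested, the endothelial PECAM1 and the stromal COL1A1 were lower (log2 fold changes −1.53 and −0.38) and the endothelial CDH5 was higher (1.10), with 8 to 45 counts of PECAM1 and 8 to 36 of CDH5 in a library. LUM held at most 16 counts in a library. PTPRC, CD3E and DCN were looked for and matched no row, so these counts give no level for them.

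The genes most like BAP18 over the 6 libraries were named by the smallest distance between log2 CPM profiles, each centred on its mean, among the same 14222 genes. For C17orf49 these were SLC51B (distance 0.272), MIR497HG (0.310), FAM111B (0.401), BZW2 (0.410) and NEB (0.511). MIR497HG shares 1466 exon bases with C17orf49 and may not be a separate measurement. SLC51B, a subunit of a bile acid transporter, had 15.8 CPM on average in siCtrl cells and 2.88 CPM in siBAP18 cells. For BPTF the closest genes were LGSN (0.0480), SNAP23 (0.0482), OSBPL9 (0.0537), ITGB1 (0.0585) and SLC22A5 (0.0602), all of which had log2 fold changes between −0.48 and −0.45. The likeness rests on 6 libraries in 2 groups and is given as a description.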

How the data were processed

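RNA from 6 A549 cultures was analysed. Per the labels, libraries were poly(A)-selected, strand-specific and read as pairs of 150 bases, and the submitters' processing notes name hg38 and GRCm38. Aligner, counting program and strand setting are not given in the sources used here. The authors deposited raw counts per gene and RPKM values, which equal the count divided by the listed gene length in kilobases and by the column total. Of counts from 1 to 10, 77.4% were even, so mates appear to be counted separately and counting precision is overstated.

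Counts were filtered with filterByExpr, scaled by TMM and compared with the quasi-likelihood test of edgeR 4.0.16 (R 4.3.3), with Benjamini-Hochberg adjustment over 20776 genes. Samples were grouped by their labels as siBAP18 or siCtrl. Calls needed an adjusted p under 0.05, and those past 2-fold also an absolute log2 fold change over 1. Ratios were tested by an exact permutation written in Python 3.11.15 with numpy 2.4.6, and drawn with matplotlib 3.10.9. The steps were tested on simulated data. Alternatives used DESeq2 1.42.0, limma 3.58.1, other scalings and filters, a length offset, a replicate block and each library left out.

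The 10 genes and all lists were chosen with earlier results of these data known. Named genes were the 10 members, rows within 100 kb of C17orf49 or named after a member, up to 4 called genes per list (those past 2-fold first), and the 5 genes most like C17orf49 and BPTF. Further names in the marker and list accounts were added after values were seen. MLF1IP of the S-phase list matched no row, and 1 marker is not reported here.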

Additional observations from a re-analysis of the deposited data

How the results depend on the processing

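C17orf49 was lower in every alternative tried, from −2.72 to −1.81 on the log2 scale, and none of the values recomputed under the alternatives reversed. Genes named after their values were seen, marker genes and list medians were not recomputed. With each library left out in turn, 7 genes were lower each time, and the number higher ranged from 0 to 1, from CECR2. Above a mean RPKM of 0.5, limma on log2(RPKM + 1) and limma on log2(RPKM + 0.1), and without a filter limma on log2(RPKM + 1), gave 0 genes higher (CECR2 lies under that mean RPKM and was not tested in the first pair of fits), and 348, 909 and 345 genes past 2-fold over the whole table in place of 1758. The last of these left 6 genes lower, since BAZ1B was not called (adjusted p = 0.0992). With an offset for gene length 2 genes were higher, CECR2 and BAZ1A. The replicate numbers did not pair the libraries (Pearson r across genes −0.017, 0.051 and 0.0038 for equal numbers). A fit with a replicate block called 10803 genes, 1741 of them past 2-fold, and 7 genes lower and 1 higher among the 10. With each library left out, the genes called ranged from 8967 to 10602 and those past 2-fold from 1714 to 1934. Of the locus rows, RNASEK-C17orf49 lost its call in 3 of 17 alternatives, SLC16A13 in 3 and ALOX12P2 in 10. CECR2 had 19 to 63 counts in a library, and leaving out libraries moved its log2 fold change between 0.57 and 1.33.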
